A study of Mus musculus with 3 samples.

Results

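Transcripts of 40 genes that work in mitosis, the division of the nucleus, were followed across 3 preparations of mouse dendritic cells, each measured on 1 Illumina bead array. The 40 genes were given as a list of symbols, and a gene counted as measured where a probe named for it was detected (detection p under 0.01) on at least 1 of the 3 arrays. Of the 40, 22 were measured, among 8053 measured genes in all. A further 12 had probes that were not above background on any array (Ccna2, Ccnb2, Cks1b, Cks2, Ttk, Bub1, Nuf2, Cenpe, Kif2c, Kif20a, Ect2 and Ube2c). The other 6 (Mki67, Ccnb1, Aurkb, Cenpf, Tacc3 and Racgap1) had no probe listed in the platform annotation used here and were not analysed here. Of the 22, 21 were detected on all 3 arrays, and Pttg1 was detected on all but the mDC array.

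All cells came from bone marrow of DBA mice aged 6 weeks, and were kept in culture for 8 days. The medium held 20 ng/ml of GM-CSF and 2 ng/ml of IL-4, factors that drive marrow precursors to become dendritic cells. The immature cells (imDC) had no stimulus named in the labels. The semi-mature or tolerogenic cells (tDC) were then given 10 ng/ml of TNF-alpha together with 50 µg/ml of type II collagen for 4 h. The fully mature cells (mDC) were given 1 µg/ml of lipopolysaccharide, a bacterial stimulus, with collagen at 50 µg/ml for 24 h. Each group was 1 array and the labels do not say whether animals were pooled, so differences carry no test, p-value or replicate error, and precision is limited by having 3 arrays. Stimulus and hours of stimulation differed together and cannot be told apart. The labels do not say when imDC were harvested, so total time in culture may also differ between imDC and the stimulated cells, which bears on every difference from imDC.

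A cell that is about to divide copies its DNA, then condenses its chromosomes, attaches them to a spindle of microtubules at protein platforms called kinetochores, pulls the copies apart at anaphase and pinches into daughters at cytokinesis. The kinase Cdk1 with its cyclins starts this sequence, Aurora and Polo-like kinases carry it through, a checkpoint holds anaphase back until every chromosome is attached, and Cdc20 then turns on the ubiquitin ligase that ends it. The transcripts of these genes are made mainly late in the cell cycle, so that their amount in a population follows how many of its cells are dividing. They are switched on by the factors B-Myb and FoxM1 with the MuvB complex and are held down in resting cells by the related DREAM complex, both through a short promoter element, the cell cycle genes homology region (CHR), often beside CCAAT boxes bound by NF-Y. Precursors of dendritic cells are known to divide in marrow cultures with GM-CSF, and mature dendritic cells to divide little.

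On the mDC array 18 of the 22 measured mitosis genes were lower than on the imDC array by 2-fold or more, and none was higher by that much. Over all measured genes in the comparison 5.96% were lower and 6.16% higher by 2-fold. The median log2 difference of the 22 genes, mDC minus imDC, was -1.30, which is 2.46-fold lower, with quartiles of -1.62 and -1.06. Over all 7971 genes the median was -0.0029, the 5th percentile -1.09 and the 95th 1.13. All 22 lay below 0, against 50.2% of all genes, with Pttg1 entering at its bound. The largest difference was that of Kif23, a kinesin of cytokinesis, at 3.87-fold lower.

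On the tDC array 1 of the 22, the kinetochore gene Ndc80, was lower than on the imDC array by 2-fold, against 2.02% of all measured genes, and none was higher by 2-fold, against 2.88%. At any size, 21 of 22 had lower levels on tDC, against 49.8% of 7882 genes, and their median log2 difference was -0.63 (1.55-fold lower) beside 0.00 for all genes. In mDC against tDC, 3 of 22 were lower by 2-fold (Kif23, Cdc20 and Cenpa), against 2.80%, none was higher, against 3.44%, and the median was -0.73 beside -0.02. All 22 lay below 0, against 52.2% of genes, with Pttg1 again entering at its bound, which cannot lie above 0. Ndc80 missed 2-fold in tDC without background correction (-0.92), and the count of 3 became 1 under the same change. The comparisons share arrays, so they are no independent evidence of one another. For 21 of 22 genes the level was highest on imDC, intermediate on tDC and lowest on mDC, an order that 26.2% of all 8053 genes had. In bulk RNA, fewer dividing cells and less of these transcripts in each dividing cell cannot be told apart.

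**Figure D1:**
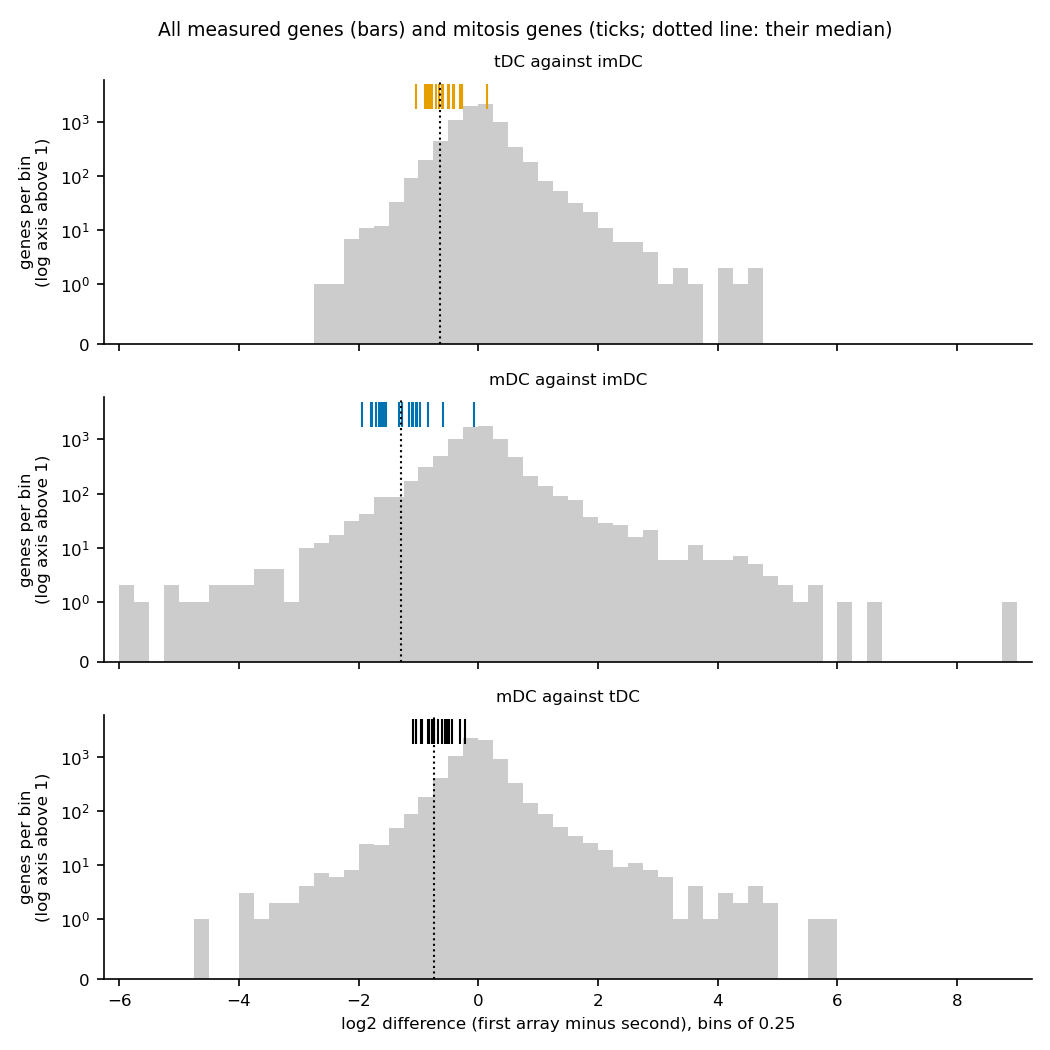
Histograms of the log2 difference (x axis, first array minus second, bins of 0.25) over all measured genes (bars, number of genes per bin, log axis above 1) in the 3 comparisons, with the 22 mitosis genes as ticks and their median as a dotted line. The ticks lie left of 0 apart from Pttg1 in tDC against imDC, and lie furthest left in mDC against imDC, around the median of -1.30.

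The promoters of these genes are shown because the genes lie lower together and CHR and CCAAT letters are known from promoters of this kind. RefSeq promoter windows (GRCm38.p6, from 250 bases before to 50 after each annotated start) were held for 35 of the 40 genes, 20 of them measured. They were searched on both strands for the CHR letters TTTGAA, which read TTCAAA on the other strand, and the variant TTCGAA, the same on both strands. They were also searched for CCAAT, which reads ATTGG on the other strand. CHR letters stood in the windows of 26 of the 35 genes (74.3%), against 21.7% of 27025 genes with a window. Of the 20 measured members 16 held them, against 16.5% of 6640 genes with a window that were measured on these arrays. CCAAT stood in 27 of the 35 (77.1%), against 41.1% of all genes, and both stood in 24 (68.6%), against 8.61%. Among measured genes, CCAAT stood in 15 of 20 members, against 43.7% of the 6640, and both stood in 15, against 7.05%. Within 50 bases on either side of the start, a window chosen after the positions were seen, 24 of 35 held CHR letters (68.6%), against 6.12% of all genes. Such a match is a description of the letters and not a shown binding site.

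Among measured genes with 1 window, those of the 4 largest differences between mDC and imDC and then of the 2 smallest are printed 5′ to 3′ along the transcribed strand, with CHR letters and CCAAT (or ATTGG) in capitals and the start at the 251st base.
Kif23, chr9:61946750-61947049, minus strand: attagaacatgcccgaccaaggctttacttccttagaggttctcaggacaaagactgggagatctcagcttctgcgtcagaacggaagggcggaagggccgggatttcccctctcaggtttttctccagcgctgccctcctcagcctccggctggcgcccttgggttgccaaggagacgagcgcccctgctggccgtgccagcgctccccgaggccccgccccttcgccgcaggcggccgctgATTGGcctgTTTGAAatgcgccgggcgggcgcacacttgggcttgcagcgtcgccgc
Birc5, chr11:117848987-117849286, plus strand: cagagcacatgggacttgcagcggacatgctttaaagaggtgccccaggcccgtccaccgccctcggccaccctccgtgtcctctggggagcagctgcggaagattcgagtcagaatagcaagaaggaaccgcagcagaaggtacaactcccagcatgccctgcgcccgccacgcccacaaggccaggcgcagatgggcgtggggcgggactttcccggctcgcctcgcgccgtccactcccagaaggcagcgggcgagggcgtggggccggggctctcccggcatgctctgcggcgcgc
Cdca8, chr4:124936868-124937167, minus strand: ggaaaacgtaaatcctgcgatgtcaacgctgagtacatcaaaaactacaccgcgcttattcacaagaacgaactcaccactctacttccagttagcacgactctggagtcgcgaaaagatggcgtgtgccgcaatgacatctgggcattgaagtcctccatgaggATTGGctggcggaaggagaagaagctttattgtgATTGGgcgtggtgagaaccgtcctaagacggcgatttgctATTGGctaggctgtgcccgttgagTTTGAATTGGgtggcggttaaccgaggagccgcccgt
Cdc20, chr4:118437294-118437593, minus strand: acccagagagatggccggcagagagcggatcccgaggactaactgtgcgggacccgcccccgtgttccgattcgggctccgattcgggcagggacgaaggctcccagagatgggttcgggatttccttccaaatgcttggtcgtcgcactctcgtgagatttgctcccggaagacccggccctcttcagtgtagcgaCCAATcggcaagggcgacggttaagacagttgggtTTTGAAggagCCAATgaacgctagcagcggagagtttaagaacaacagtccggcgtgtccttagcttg
Aurka, chr2:172370521-172370820, minus strand: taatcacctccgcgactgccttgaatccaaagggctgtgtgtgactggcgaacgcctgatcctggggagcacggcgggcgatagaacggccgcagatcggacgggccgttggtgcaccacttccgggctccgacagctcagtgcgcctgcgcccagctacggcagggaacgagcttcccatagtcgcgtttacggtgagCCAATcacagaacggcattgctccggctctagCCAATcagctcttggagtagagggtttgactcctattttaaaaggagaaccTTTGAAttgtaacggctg
Pttg1, chr11:43425932-43426231, minus strand: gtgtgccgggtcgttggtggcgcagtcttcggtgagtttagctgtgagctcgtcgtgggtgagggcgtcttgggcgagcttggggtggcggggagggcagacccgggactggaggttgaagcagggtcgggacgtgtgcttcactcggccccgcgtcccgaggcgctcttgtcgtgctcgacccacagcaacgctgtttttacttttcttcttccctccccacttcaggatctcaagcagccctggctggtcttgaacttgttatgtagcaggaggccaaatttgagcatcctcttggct

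In the Kif23 window ATTGG begins 7 bases before the start and TTTGAA 2 bases after it. The Cdc20 window has TTTGAA 18 bases before the start between CCAAT at 53 and at 8 bases before it. The Cdca8 window holds ATTGG at 85, 51 and 11 bases before the start, and its TTTGAA, 13 bases after the start, shares its last base with a further ATTGG. The Aurka window has CCAAT at 51 and at 19 bases before the start and TTTGAA 32 bases after it, although Aurka was among the genes with the smallest differences (Incenp, smaller still, had no window). Neither Birc5, with the second largest difference, nor Pttg1, with the smallest, has either motif in its window. The value of Pttg1 is a bound, as the gene lay close to background and was not detected on mDC. Among measured genes the median log2 difference, mDC minus imDC, was -1.55 for the 16 with CHR letters (from -1.95 to -0.83). It was -1.15 for the 4 without (Birc5, Nusap1, Mad2l1 and Pttg1, from -1.79 to -0.07), so the ranges overlap. The end of that range at -0.07 is the bound of Pttg1.

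The members are described next by role, with the average signal of the probe used, in intensity units, on the imDC, tDC and mDC arrays in that order. The median signal of probes not detected was 102 on imDC, 97.6 on tDC and 98.2 on mDC. Folds come from background-corrected, quantile-normalized log2 levels, so they can differ from the plain ratio of signals, mainly in dim genes. They are given as fold lower than imDC unless stated.

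Cdk1, the kinase that drives entry into mitosis, had signals of 1379, 988 and 598. It was 1.35-fold lower in tDC and 2.24-fold lower in mDC. Top2a, the topoisomerase that untangles sister chromosomes and a common mark of dividing cells, had signals of 2039.7, 1332 and 917 and was 1.50-fold and 2.13-fold lower. Both were highest in imDC and lowest in mDC. The other cyclin and Cdk partners with probes could not be followed: Ccna2, Ccnb2, Cks1b and Cks2 gave signals between 76.5 and 116 on the 3 arrays, which is background.

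Among mitotic kinases and a cofactor, Plk1, the Polo-like kinase of spindle assembly and mitotic exit, had signals of 2546, 1653 and 1187. It was 1.52-fold lower in tDC and 2.06-fold lower in mDC. Aurka, the kinase of spindle poles, had signals of 1731, 1353 and 919 and differed less, by 1.23-fold and 1.78-fold. Tpx2, which activates Aurora A on the spindle, had signals of 716, 422 and 308 and differed more than its kinase, by 1.73-fold and 2.42-fold. Bub1b, whose product BubR1 is a part of the spindle checkpoint, had signals of 649.9, 385 and 251. It was 1.72-fold and 2.90-fold lower, the largest difference among these 4 genes in mDC. Ttk and Bub1, kinases of the same checkpoint, were not above background, with signals from 90.2 to 112.

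The chromosomal passenger complex corrects wrong attachments of chromosomes and later guides cytokinesis. Its subunits did not differ equally. Birc5, which encodes survivin, had signals of 2311, 1280.4 and 673 and was 1.80-fold and 3.45-fold lower. Cdca8, which encodes borealin, had signals of 843, 479.6 and 276 and was 1.77-fold and 3.43-fold lower. Incenp, the scaffold that holds Aurora B, had signals of 1403, 1116 and 874 and was only 1.21-fold and 1.50-fold lower, short of 2-fold in both comparisons. A log2 difference of -0.58 for Incenp thus stands beside -1.79 for Birc5 and -1.78 for Cdca8 in mDC against imDC, with 1, 3 and 1 detected probes behind them.

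Kinetochore genes gave the sole member that was 2-fold lower in tDC, a call lost in 3 of the 7 alternative ways of processing given below. Ndc80, which encodes the microtubule-binding subunit Hec1, had signals of 985, 488 and 331. It was 2.07-fold lower in tDC and 3.16-fold lower in mDC. Spc25, a subunit of the same Ndc80 complex, had signals of 642, 374 and 244 and was 1.76-fold and 3.01-fold lower. Nuf2, which pairs with Ndc80 in that complex, was not above background, with signals from 86.4 to 102. Cenpa, the histone H3 variant that marks centromeres, had signals of 14141, 9933 and 4773. It was 1.42-fold lower in tDC and 2.94-fold lower in mDC, and mDC was also 2.06-fold lower than tDC. Mad2l1, which encodes the checkpoint protein Mad2, had signals of 1780.1, 1294 and 867 and was 1.33-fold and 1.95-fold lower, just short of 2-fold.

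The 3 measured genes of spindle motors and microtubule binding were all 2-fold lower in mDC. Kif11, the kinesin Eg5 that pushes spindle poles apart, had signals of 612, 341 and 237 and was 1.86-fold and 2.97-fold lower. Kif22, a kinesin that moves chromosome arms, had signals of 2249.8, 1365 and 908 and was 1.63-fold and 2.41-fold lower. Nusap1, which bundles spindle microtubules, had signals of 2142, 1485 and 832 and was 1.41-fold and 2.50-fold lower. The motor gene Kif2c was not above background.

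Of the cytokinesis genes, Kif23 (the kinesin MKLP1 of the central spindle) had signals of 1463, 805 and 398. It was 1.81-fold lower in tDC and 3.87-fold lower in mDC, and 2.13-fold lower in mDC than in tDC. Of all measured genes, 1.23% had a difference in mDC against imDC as low or lower. Prc1, which crosslinks the central spindle, had signals of 5404, 4529.8 and 2472. It was close to its imDC level in tDC (1.21-fold lower) and 2.16-fold lower in mDC. The 2 genes of the central spindle thus lay at unequal distances below imDC on both arrays. Kif20a and Ect2 were not above background.

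Genes of anaphase and mitotic proteolysis included the member that differed least. Cdc20, the activator of the anaphase-promoting complex, had signals of 3032, 1872 and 918. It was 1.59-fold lower in tDC, 3.27-fold lower in mDC and 2.06-fold lower in mDC than in tDC. Cdca3, a trigger of mitotic entry that helps degrade the kinase Wee1, had signals of 2754, 1562 and 882 and was 1.75-fold and 3.08-fold lower. Espl1, which encodes separase, the protease that cuts cohesin at anaphase, had signals of 414, 326 and 222. It was 1.22-fold lower in tDC and 2.04-fold lower in mDC. Pttg1, which encodes securin, the inhibitor of separase, had signals of 174, 170.4 and 149.9. It lay close to background on every array. After normalization it was 1.11-fold higher in tDC (log2 difference 0.14), although its signal there was slightly lower than on imDC. In mDC, where it was not above background, it was at least 1.05-fold lower. Ube2c, the ubiquitin-conjugating enzyme of the anaphase-promoting complex, was not above background and was the excluded gene closest to the detection threshold, with a lowest detection p of 0.117. Pttg1 was the included gene closest to it, with 0.00125.

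**Figure D2:**
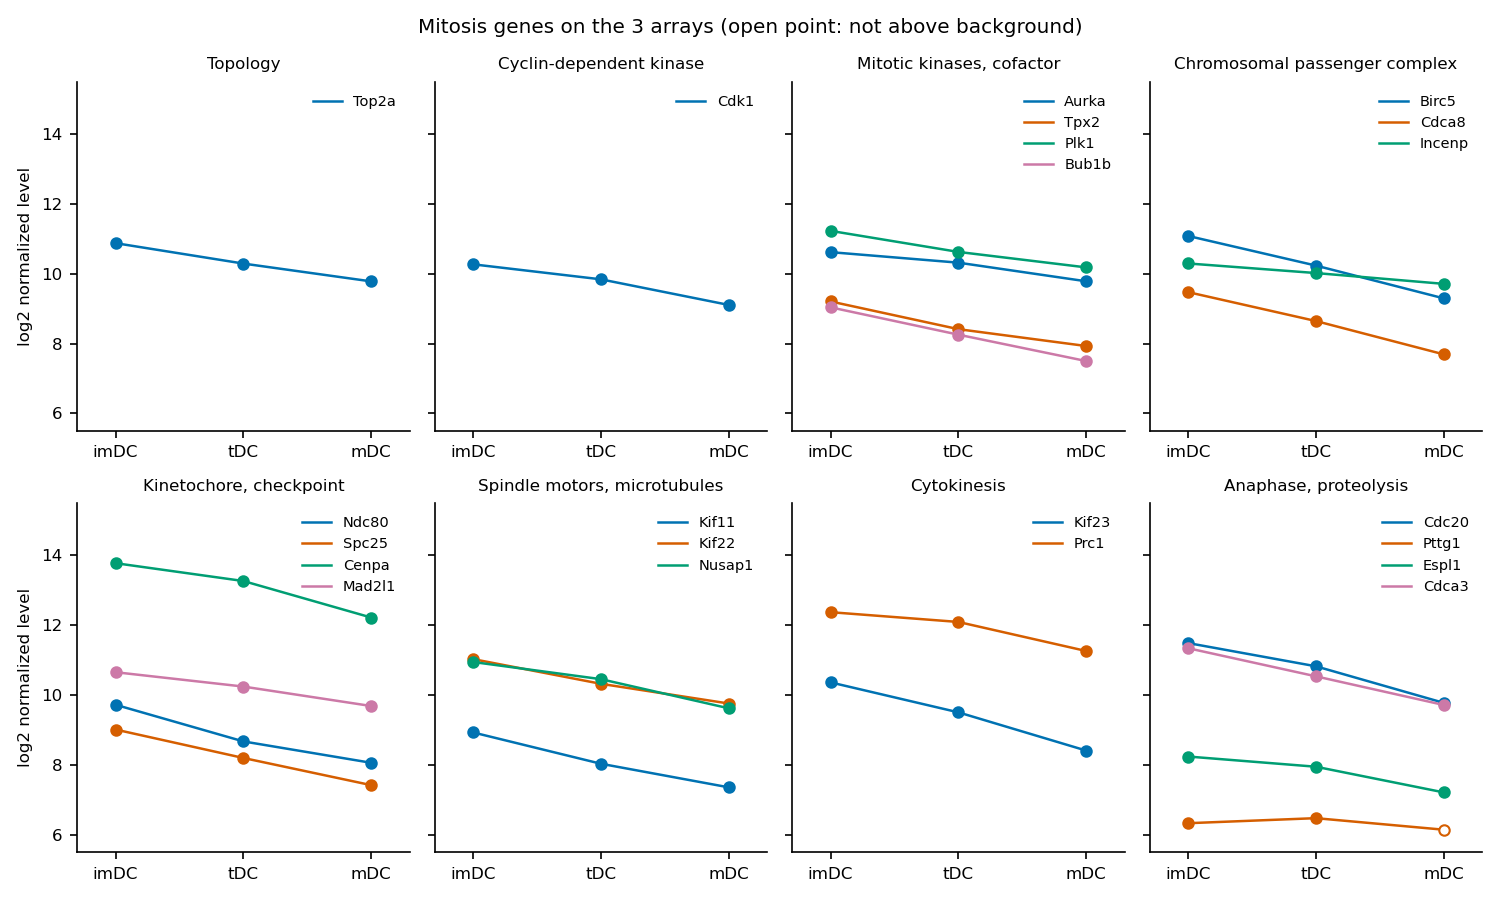
Log2 normalized level (y axis) of the 22 measured mitosis genes on the imDC, tDC and mDC arrays (x axis), 1 array each, in 8 panels by role. Lines join the values of 1 gene and open points are not above background. For 21 genes the line runs down from imDC through tDC to mDC, and that of Pttg1 is nearly flat.

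**Figure D3:**
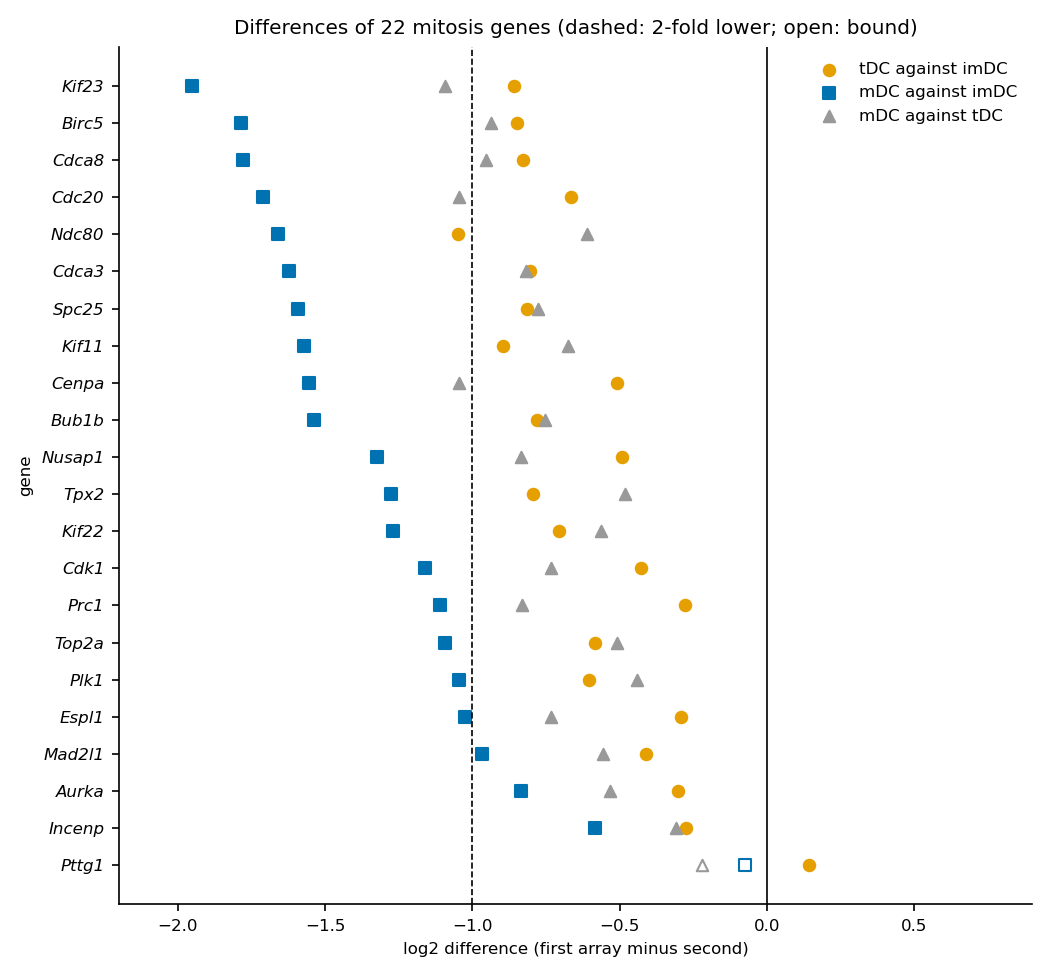
Log2 difference (x axis) of each measured mitosis gene (y axis) in tDC against imDC (circles), mDC against imDC (squares) and mDC against tDC (triangles), ordered by the squares. The dashed line marks 2-fold lower and open symbols are bounds. The squares of 18 genes lie left of it, from Kif23 at -1.95 to Espl1 at -1.03.

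The scatter between probes was the sole measure of error in these data, and it leaves out variation between cultures. Over all genes with at least 2 probes detected on both arrays, the log2 differences of the 2 brightest disagreed by a median of 0.15 over 1815 genes in mDC against imDC and by 0.13 over 1847 genes in tDC against imDC. The 95th percentile was 0.57 and 0.44. The 3 probes of Birc5 gave log2 differences between -1.90 and -1.51 in mDC against imDC, and the 3 probes of Cdc20 detected on all arrays gave -1.71 to -1.46. The 2 probes of Cdca3 gave -1.62 and -1.62. The 2 probes of Spc25 disagreed most, at -1.59 and -1.12. In tDC against imDC the probes of these 4 genes that were detected on all 3 arrays lay between -0.85 and -0.51. All of these differences had 1 sign and exceeded the median disagreement between probes. The difference of Pttg1 in tDC, 0.14, was about the size of that disagreement, and its bound in mDC, -0.07, was smaller. Further differences in tDC against imDC were smaller in size than the 95th percentile of 0.44. These were Cdk1 (-0.43), Mad2l1 (-0.41), Aurka (-0.30), Espl1 (-0.29), Prc1 (-0.28) and Incenp (-0.27).

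**Figure D4:**
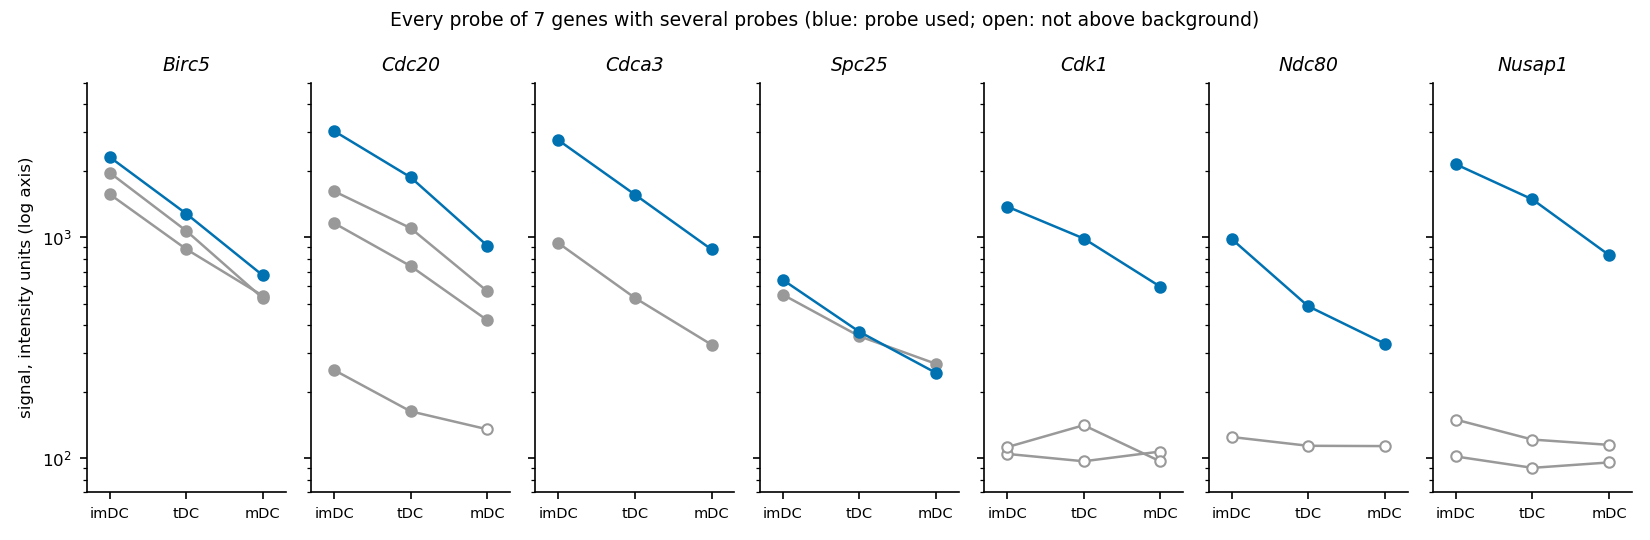
Signal in intensity units (y axis, log axis) of every probe of 7 mitosis genes with several probes on the imDC, tDC and mDC arrays (x axis). The probe used is blue, others are grey, and open points are not above background. The detected probes of Birc5, Cdc20, Cdca3 and Spc25 run down from imDC to mDC, while Cdk1, Ndc80 and Nusap1 each have a bright probe and at least 1 at background.

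A probe at background did not show that a transcript was missing. Cdk1 had a probe with signals from 598 to 1379 and 2 more probes of the same accession between 96.7 and 141, none of them detected at p under 0.01. Ndc80 had a bright probe and 1 with signals from 113 to 125, and Nusap1 had a bright probe and 2 with signals from 90.4 to 149.5. The 12 mitosis genes with no detected probe can therefore not be read as unexpressed.

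Other genes of the division machinery, from lists written with earlier results of these data known, were set beside the members. A list of 46 further mitosis and cytokinesis genes had 30 measured. Of these, 10 were lower by 2-fold in mDC than in imDC, against 5.96% of all genes, and none was higher, against 6.16%. Their median log2 difference was -0.84. In tDC 1 was lower, against 2.02% of all genes, and the median was -0.52. Of these 30, 6 were not above background on tDC and 10 on mDC, so that they entered through the array where they were high and stand at their bounds. Anln, which encodes the cytokinesis scaffold anillin, was 2.04-fold lower in tDC and 3.84-fold lower in mDC. The centromere protein genes Cenpn (2.98-fold) and Cenpi (2.65-fold) and Cep55, which acts in the last cut between daughters (2.95-fold), were lower in mDC.

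Medians nearer 0 were seen for subunits of large complexes. Of 11 measured condensin and cohesin genes 3 were lower in mDC, against 5.96% of all genes, with a median of -0.18 in mDC and -0.13 in tDC. All 3 encode condensin subunits: Ncaph (2.67-fold), Ncapd2 (2.33-fold) and Ncapg2 (2.06-fold). None of 9 measured genes of the anaphase-promoting complex and its regulators differed by 2-fold in either comparison with imDC, and their median was 0.04 in mDC and -0.02 in tDC, where their activator Cdc20 stood at -1.71 and -0.66. Tubulins had a median of -0.02 in mDC and -0.19 in tDC. In mDC 1 of 8 was higher (Tuba4a, 2.42-fold), against 6.16% of all genes, and none was lower.

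Genes of DNA replication, which acts before mitosis, had a median nearer 0 on the mDC array. Of 21 measured, 2 were lower by 2-fold, Mcm10 (2.10-fold) and Tk1 (2.06-fold), with a median of -0.64. That count lies near the share over all genes, 5.96%. In tDC Tk1 was 2.22-fold lower and the median was -0.44, and in mDC against tDC it was -0.11 beside -0.73 for the mitosis genes. That difference between lists was not tested. DNA repair genes of dividing cells had a median of -0.78 in mDC, with 2 of 9 lower, Fancd2 (2.70-fold) and Rad51ap1 (at least 2.01-fold), and a median of -0.56 in tDC, with Timeless 2.24-fold lower. Histone and chromatin genes of dividing cells had medians of -0.65 and -0.28, with Stmn1 (2.33-fold) and Lmnb1 (2.02-fold) lower in mDC.

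Of 23 listed genes of cell cycle transcription, 18 were measured. Lin9, Rbbp4 and E2f8 had no probe listed, and Lin52 and E2f7 were not above background. Foxm1 had signals of 509, 333 and 259 and was 1.54-fold lower in tDC and 2.07-fold lower in mDC. Mybl2, which encodes B-Myb, had signals of 429.6, 359 and 282 and was 1.14-fold and 1.49-fold lower. Of 18 measured genes in this list of cell cycle transcription factors, 3 were lower in mDC, Foxm1, E2f2 (2.80-fold) and Tfdp2 (2.31-fold), against 5.96% of all genes. One further gene, E2f5 (2.32-fold), was higher, against 6.16%, and the list median was -0.14. In tDC E2f2 was 2.08-fold lower, and the median was -0.01.

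Upstream of mitosis the genes went both ways. Over all measured genes 5.96% were lower and 6.16% higher by 2-fold in mDC, and 2.02% and 2.88% in tDC. Among 10 measured G1 cyclins and kinases Ccnd1, which encodes cyclin D1, was 27.6-fold lower in mDC and Ccne2 was at least 2.91-fold lower, whereas Ccnd2 was 3.04-fold higher. The list median was -0.27 in mDC and -0.35 in tDC, where Ccnd1 was 3.45-fold lower. Among 9 Cdk inhibitors Cdkn2a (3.09-fold) and Cdkn2b (2.36-fold) were higher and Cdkn1c (3.70-fold) and Cdkn2c (2.40-fold) lower in mDC. Their median was 0.05 in mDC and 0.21 in tDC. Cdkn1a, which encodes p21, was 1.24-fold and 1.40-fold higher. Of 11 genes of mitotic entry control, Chek2 (3.62-fold), Cdc25c (2.62-fold) and Cdc25b (2.06-fold) were lower in mDC, and Gadd45b (2.41-fold) and Plk2 (2.17-fold) were higher. Cdc25b and Plk2 were named after their values were seen. The list had medians of -0.07 in mDC and 0.01 in tDC. In tDC Gadd45b (2.39-fold) and the growth-arrest gene Gadd45a (2.23-fold) were higher and Chek2 (2.21-fold) was lower. With median scaling the small list medians took the other sign for the anaphase-promoting complex (-0.035) and Cdk inhibitors (-0.096) in mDC and for mitotic entry (-0.024) in tDC.

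**Figure D5:**
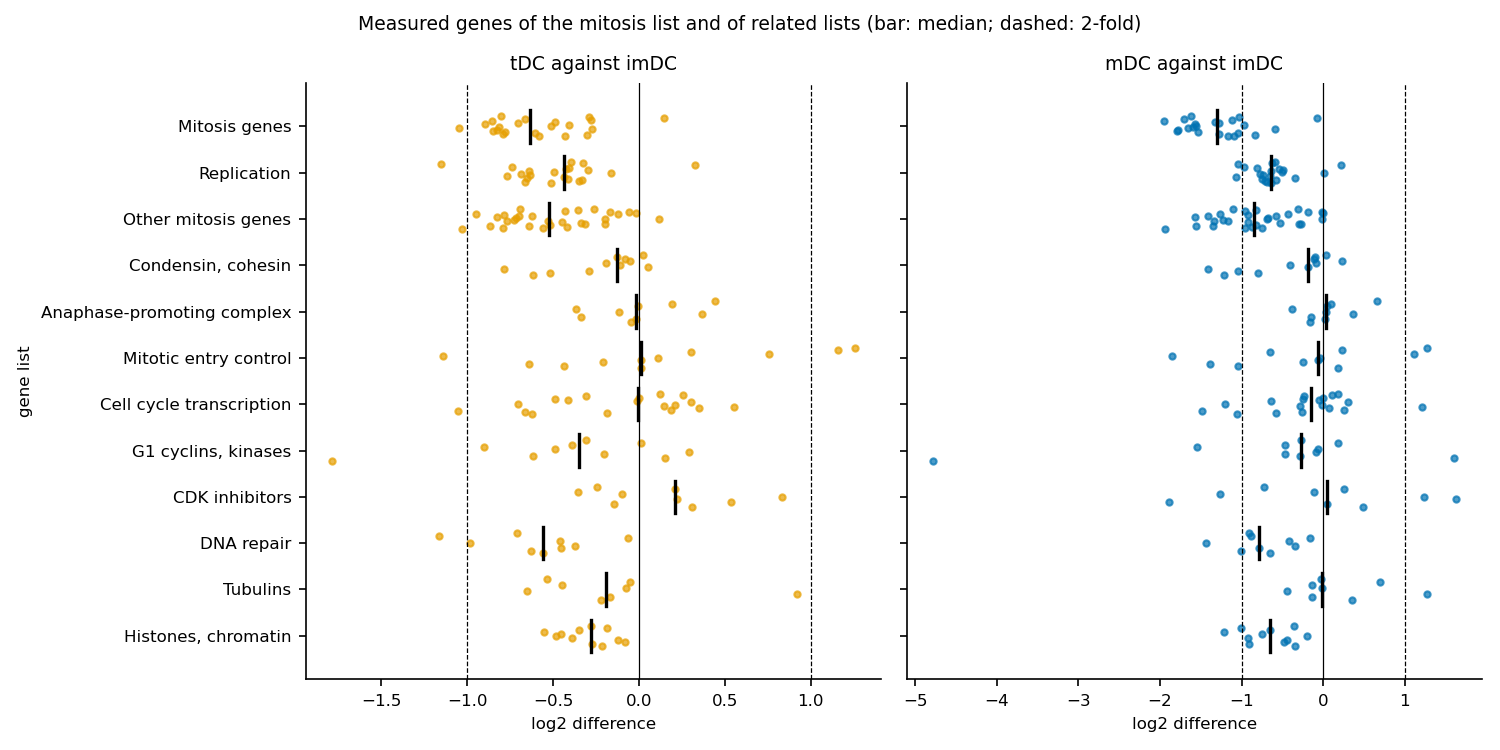
Log2 difference (x axis) of every measured gene (points) in the mitosis list and 11 related lists (y axis), in tDC against imDC (left) and mDC against imDC (right), with medians as bars, 2-fold as dashed lines and a wider x range on the right. The mitosis genes have the lowest median of the 12 lists in both panels, at -0.63 and -1.30, except that with median scaling DNA repair (-0.66) lay below them (-0.63) in tDC.

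Markers of cell types also differed between the arrays. Beside their counts stand the shares of all measured genes against imDC: 5.96% lower and 6.16% higher by 2-fold in mDC, and 2.02% and 2.88% in tDC. Of 15 dendritic cell markers 13 were measured, and Flt3 and Clec9a were not above background. In mDC 5 were lower and 1, Irf8 (2.18-fold), was higher, with a median of -0.82. In tDC 2 were lower, with a median of -0.12. Cd209a, counted as lower in both, was detected on imDC only and stands at its bound. Itgax, which encodes CD11c, had signals of 1123, 506 and 317. The summed linear level of this list was 90778 on imDC, 93351 on tDC and 60252 on mDC. Most of that sum came from Cd74 and H2-Ab1, named after their values were seen. Cd74 had signals of 47498, 49061 and 32324, and H2-Ab1 of 26448, 27198 and 12897. Of markers of granulocytes and their precursors, 7 of 16 were higher in tDC and 6 of 15 in mDC than in imDC, and none was lower. Their summed level was 107310 on imDC, 167295 on tDC and 181839 on mDC. Their medians were 0.94 in tDC and 0.36 in mDC, and Ms4a3, a gene of granulocyte precursors, was 3.06-fold and 3.99-fold higher. In mDC against tDC, however, 11 of 16 were below 0, with a median of -0.20, and Elane (2.94-fold) and Prtn3 (2.25-fold), named after their values were seen, were lower. Lcn2, also a gene of inflammation, was 12.7-fold higher in mDC than in imDC and 2.48-fold higher than in tDC, and the list's sum was higher in mDC than in tDC while most of its genes were not.

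Mast cell and basophil markers were higher for 5 of 8 in mDC and 2 of 7 in tDC, against 6.16% and 2.88% of all genes. They had summed levels of 7850, 17749 and 40160 and medians of 1.28 and 0.91. The histamine enzyme gene Hdc made up most of the sum on mDC, with signals of 1367, 7421 and 26092. Macrophage and monocyte markers went both ways, with 4 of 9 lower and 3 higher in mDC, summed levels of 61204, 75698 and 89047 and medians of -0.51 in mDC and -0.44 in tDC. The median in mDC was 0.057 over the genes detected on all 3 arrays. Of 10 stem and progenitor markers 4 were measured and none differed by 2-fold, with medians of 0.0049 in mDC and 0.22 in tDC, the latter -0.043 at a detection p under 0.05. Myb, Sox4, Hoxa9, Flt3 and Cd48 were not above background, and the summed level was 2048, 2816 and 3047. Gata2, which is also in the mast cell and basophil list, had signals of 1146, 1526 and 1998. In mDC against imDC its log2 difference was 0.99, beside 0.052 for Spi1, -0.043 for Cd34 and -0.19 for Meis1. These 4 genes were named after their values were seen. Erythroid and platelet markers were higher for 3 of 4 in mDC, with summed levels of 679, 1103 and 2981. T, NK and B cell markers were higher for 2 of 5, with 301, 612 and 1075. On imDC, tDC and mDC, 3, 3 and 4 genes of the former list and 2, 2 and 5 of the latter were detected. Of 7 stromal markers Dcn alone was measured, at least 2.24-fold higher in mDC and detected there only. Genes detected on mDC only entered through the array where they were high, and stand at their bounds. In bulk RNA, more cells of a type and more marker transcript in each cell cannot be told apart. Whether these marker differences bear on the lower mitosis genes was not tested.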

How the data were processed

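Total RNA of 3 cell preparations, 1 per group, was labelled and hybridised to Illumina MouseRef-8 v2 bead arrays, with 550 ng of RNA each per the labels' protocols. The deposited table gives for each of 25697 probes the mean bead intensity on a linear scale, per the file headers. Beside it stands the deposited detection p-value. The submitters' processing notes name GenomeStudio 2011.1. A second table holds the processed values the authors deposited as log2 levels, with 1 distribution over the 3 arrays and a median of 6.98. Their direction and scale follow the signals, and their background handling is not given in the sources used here.

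Signals were background corrected here by normexp from detection p-values with an offset of 16 and quantile normalized (neqc, limma 3.58.1, R 4.3.3). Probes were kept at a detection p under 0.01 on at least 1 array (11556). A single gene symbol was given for 23978 probes, none had several and 1719 were unnamed. Symbols were updated by Entrez ID through RefSeq (GRCm38.p6), which held 23962. The probe with the highest mean level stood for a gene. A gene detected on 1 array of a pair was compared with its own value on the other array, or with that array's lowest detected level where this was higher, and is given as "at least". Differences of 1 or more on the log2 scale were counted. The steps were run on simulated arrays with changes well above 2-fold put into bright probes. Such arrays do not test differences near 2-fold, differences of dim genes or bounds. Members of the mitosis list could all be named. Elsewhere up to 4 genes with the largest differences at 2-fold were named per list, every transcription factor at 2-fold, and Ccnd1, Foxm1, Mybl2 and Cdkn1a. Members and lists were chosen with earlier results of these data known. Probes detected were 11006 on imDC, 10764 on tDC and 10673 on mDC.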

Additional observations from a re-analysis of the deposited data

How the results depend on the processing

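The 7 alternatives were no background correction, median scaling, a larger offset of 50, the processed values from the authors, a detection threshold of p under 0.05, detection on all 3 arrays, and averaging the probes of each gene. In mDC against imDC the number of mitosis genes lower by 2-fold stayed between 16 and 19, and the median log2 difference between -1.38 and -1.20. In that comparison 16 of the 18 genes were lower by 2-fold under every alternative. Espl1 (-0.73) and Plk1 (-0.99) missed it without background correction, and Espl1 also with an offset of 50 (-0.88) and with the authors' values (-0.75), while Mad2l1 reached it with median scaling (-1.02). In tDC against imDC the count of 1 became 0 without background correction (Ndc80 at -0.92), with an offset of 50 (-0.99) and with the authors' values (-0.92), and the median stayed between -0.66 and -0.61. In mDC against tDC the count of 3 became 1 without background correction, where Kif23 was at -0.93 and Cdc20 at -0.98. It was 2 with the authors' values (Kif23 at -0.94) and with averaged probes (Cdc20 at -0.85), and 4 with median scaling, where Cdca8 reached -1.01. The median of -0.73 became -0.54, or -0.55 with the authors' values. Under each alternative no mitosis gene was higher by 2-fold in any comparison, and 21 genes had the order imDC, tDC, mDC. The number of all genes lower by 2-fold, tDC against imDC, moved from 159 to 79 without background correction and to 85 with the authors' values. That of all genes higher by 2-fold, tDC against imDC, moved from 227 to 148 without background correction. That of all genes lower by 2-fold, mDC against tDC, moved from 219 to 132 without background correction and to 136 with the authors' values. The causes were not tested. Of 56 medians of the other lists, 9 took the other sign under some alternative. In mDC or tDC against imDC these were stem and progenitor markers in tDC (-0.043 with p under 0.05) and in mDC (-0.043 with p under 0.05, -0.088 with median scaling), macrophage markers in mDC (0.057 with detection on all 3 arrays), and, with median scaling, the anaphase-promoting complex (-0.035) and Cdk inhibitors (-0.096) in mDC and mitotic entry in tDC (-0.024). In mDC against tDC they were G1 cyclins (0.16 with detection on all 3 arrays) and, with p under 0.05, the anaphase-promoting complex (-0.0023) and macrophage markers (-0.44). Median scaling moved the median of all genes by at most 0.06. No paired analysis was possible because each group is 1 array. Without replicate arrays, no difference has an error that covers variation between cultures, and dim genes such as Pttg1 are limited by their signal over background.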

Other observations

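CCAAT pairs of 1 orientation whose first letters lie 31 to 33 bases apart were also counted, a spacing chosen after the positions were seen. They stood in the promoter windows of 6 of 35 mitosis genes (17.1%), against 0.918% of 27025 genes. Of the 20 measured members 3 held such a pair, against 1.72% of the 6640 genes measured on the arrays. At least 2 CCAAT on either strand stood in 19 of 35 (54.3%), against 13.3% of 27025. Among measured genes it was 9 of 20, against 17.4% of the 6640. In the Aurka window the boxes begin 51 and 19 bases before the start, and in Spc25 55 and 23 bases before it. Cdk1 holds ATTGG at 80 and 48 bases before the start and TTTGAA at 71 and 15.

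Fzr1, which encodes Cdh1, the activator of the anaphase-promoting complex that takes over from Cdc20 after mitosis, was named after its values were seen. It had a log2 difference of 0.44 in tDC and 0.66 in mDC against imDC, under 2-fold in both, where that of Cdc20 was -0.66 and -1.71.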
